A study of Mus musculus with 15 samples.

Results

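Interferon-stimulated genes are the genes that cells switch on when interferons reach them, and 37 of them were followed here across the aortas of 15 mice. The 37 are a list of textbook targets. A member was kept where a probe set, the group of probes on the array that reads out a transcript, was annotated to that gene alone, and where a gene had several, that with the highest mean on the 15 arrays was taken. This left 35 members, each with 1 of the 58 probe sets annotated to listed genes, out of 18193 genes measured in the same way. Isg15 has a single probe set that is also annotated to Gm9706 and is reported apart, and no probe set was named for Ifi44.

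RNA came from the whole aorta of male C57BL/6 mice aged 9 weeks, and each mouse had an Affymetrix array of its own. Every mouse lacked apolipoprotein E (Apoe), a carrier of blood lipids, and such mice become hypercholesterolaemic and form plaques, so there was no group with normal Apoe. In the Apoe/RAGE null mice Ager was deleted too, the gene of RAGE, a cell surface receptor for glycated proteins. Diabetic mice had received streptozotocin, which kills pancreatic beta cells, at 65 mg/kg on 5 days from the age of 6 weeks, whereas the others received the citrate buffer alone. The groups were 4 non-diabetic Apoe null mice (replicates 5 to 8), 4 diabetic Apoe null mice (replicates 1 to 4), 3 non-diabetic Apoe/RAGE null mice (replicates 13 to 15) and 4 diabetic Apoe/RAGE null mice (replicates 9 to 12). The Apoe null animals were bought from a supplier and the double null animals came from another laboratory, so RAGE genotype and colony cannot be told apart.

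Interferons are secreted proteins of antiviral defence. Type I interferons bind a receptor made of Ifnar1 and Ifnar2, and interferon gamma binds one made of Ifngr1 and Ifngr2; both receptors signal through Janus kinases to STAT proteins. The type I route ends in a complex that contains Stat2 and Irf9 and binds a promoter element called ISRE, whereas the interferon gamma route ends in a STAT dimer that binds an element called GAS. In the arterial wall, endothelial cells, smooth muscle cells and the macrophages of plaques can all respond to interferons.

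Promoter sequences were read to show what the members share besides their annotation. The RefSeq promoter table (GRCm38.p6, 250 bases before to 50 bases after the start site) held 24 of the 35 members by symbol. Dhx58, Ifi27l2a, Iigp1, Ly6e, Mx1, Mx2, Oas2, Parp14, Rtp4, Usp18 and Zbp1 had no entry. The ISRE core GAAANNGAAA, searched on both strands (TTTCNNTTTC on the other), was present in 13 of the 24 (54.2%), against 3.44% of all 32851 promoters in the table and 3.99% of its 27025 genes. The GAS core TTCNNNGAA, which reads the same on both strands, was present in 8 of the 24 (33.3%), against 8.30% of promoters and 9.55% of genes. The 2 motifs were counted independently and may overlap. Of the 13 windows around the core nearest the start site, the 9 that lie wholly upstream of that site are shown here because they show the shared element. Each runs 5′ to 3′ on the gene's strand, and capitals mark every match to the core in either orientation, which in Bst2 and Gbp3 are 2 matches that overlap.
Stat2: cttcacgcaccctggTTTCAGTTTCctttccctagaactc
Ifit1: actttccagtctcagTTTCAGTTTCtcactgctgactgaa
Ifit3: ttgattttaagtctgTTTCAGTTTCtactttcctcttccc
Oas3: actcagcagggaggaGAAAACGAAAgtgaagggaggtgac
Rsad2: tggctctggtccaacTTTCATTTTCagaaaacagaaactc
Bst2: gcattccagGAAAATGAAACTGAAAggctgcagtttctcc
Gbp2: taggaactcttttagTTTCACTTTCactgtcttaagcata
Gbp3: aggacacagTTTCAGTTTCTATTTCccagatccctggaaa
Igtp: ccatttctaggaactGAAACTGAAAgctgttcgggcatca
In GRCm38.p6 these windows are chr10:128270261-128270300 (+ strand) for Stat2, chr19:34640789-34640828 (+) for Ifit1, chr19:34583392-34583431 (+) for Ifit3, and chr5:120777710-120777749 (- strand) for Oas3. Those of the remaining genes are chr12:26456548-26456587 (-) for Rsad2, chr8:71537572-71537611 (-) for Bst2, chr3:142620589-142620628 (+) for Gbp2, chr3:142559990-142560029 (+) for Gbp3 and chr11:58199507-58199546 (+) for Igtp. The core nearest the start site began 222 bases upstream of the start site in Stat2, 85 in Ifit1, 122 in Ifit3, 75 in Oas3, 120 in Rsad2, 124 in Bst2, 59 in Gbp2, 39 in Gbp3 and 34 in Igtp. Stat2, Ifit1, Ifit3 and Gbp3 share the core TTTCAGTTTC, and Bst2 and Igtp hold it in the opposite orientation. A match describes the letters only, and no binding was measured.

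The deposited values are log2 levels, so a difference of 1 is a doubling. Array medians lay between 4.35 and 4.42, and pairs of arrays correlated at 0.972 to 0.997 over probe sets. Replicates 9 and 10 stand apart from their label: at Decr2, a gene near Ager, the 8 Apoe null arrays read 5.32 to 6.01 and the other 5 Apoe/RAGE null arrays 6.84 to 7.56, whereas replicates 9 and 10, labelled Apoe/RAGE null, read 5.19 and 5.10. A probe set of Ager itself split the arrays in the same way, at 4.17 to 4.69, 4.89 to 5.36, and 4.63 and 4.48 for replicates 9 and 10, and was not lower in the arrays labelled Apoe/RAGE null. Neither Ager probe set checks the deletion, as the deleted part is not given in the sources used here. For the comparisons that rest on the diabetic Apoe/RAGE null group, the counts and medians of the list are therefore given with and without these arrays, and so are the fold changes of single genes where they moved by over 1.5 times. Without replicates 9 and 10 that group is replicates 11 and 12 alone. Counts with and without them therefore also differ through the number of arrays and are to be read beside the shares of all genes. No member lies within 20 Mb of Ager. Signals of different probe sets are not comparable as levels between genes; those of Mx1, Dhx58, Oas3, Oasl1, Mx2 and Stat2 averaged below the median of all probe sets (4.37), where small differences are hard to measure.

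The plot of all members by array shows where the signal lay.

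**Figure D1:**
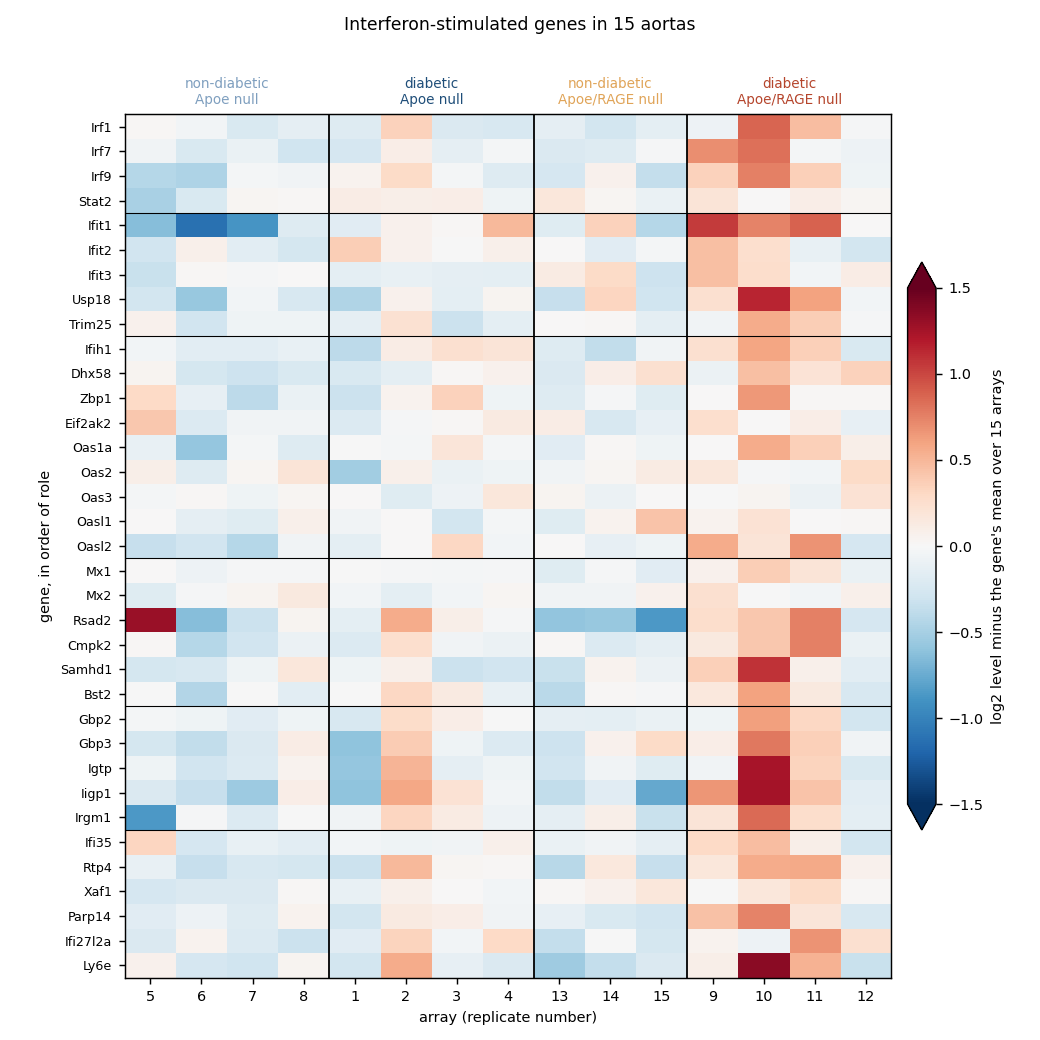
Each row is 1 of the 35 interferon-stimulated genes, ordered by role (lines separate the roles), and each column is 1 array labelled with its replicate number and group. Colour gives the log2 level minus the gene's mean over the 15 arrays, with the scale ending at 1.5 in either direction; replicate 10 is the highest array for 20 of the 35 genes.

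Interferon-stimulated genes were highest in the diabetic Apoe/RAGE null group, but unevenly among its 4 mice. The mean deviation of the 35 members from their means over all arrays was 0.25 ± 0.25 (SD, n = 4) there. The non-diabetic Apoe/RAGE null arrays averaged -0.12 ± 0.06 (SD, n = 3). Among Apoe null arrays the mean was -0.01 ± 0.14 (SD, n = 4) for diabetic mice, and -0.14 ± 0.09 (SD, n = 4) for the others. Within the diabetic Apoe/RAGE null group it reached 0.22, 0.54, 0.29 and -0.06 for replicates 9 to 12. Replicate 12 therefore lay inside the range of the non-diabetic groups and the other 3 above it. The diabetic Apoe null arrays read -0.18, 0.16, -0.01 and -0.02 in replicates 1 to 4, so that replicate 2 was the only array outside the diabetic Apoe/RAGE null group with a positive mean.

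The study's design names 4 comparisons: diabetes within each genotype and RAGE deletion within each disease state. No member passed limma's test with Benjamini-Hochberg adjustment over all probe sets (adjusted p under 0.05) in any comparison. The share of the 45037 probe sets that passed was 0% for diabetes in Apoe null aorta, 0% for RAGE deletion without diabetes, 0% for diabetes in Apoe/RAGE null aorta, 0.244% for RAGE deletion in diabetic aorta and 0% for the interaction, the difference between the effects of diabetes in the 2 genotypes. The smallest adjusted p of a member was 0.342, 1, 0.674, 0.221 and 0.711 in that order. Everything below on unadjusted p-values is a description of the members beside all genes, and the 2 comparisons with the diabetic Apoe/RAGE null group share those 4 arrays.

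Diabetes in Apoe null aorta was accompanied by a slight upward lean of the list. Of the 35 members, 27 had a positive fold change, with a median of 0.10 on the log2 scale, against 49.8% of all genes and a median of 0.00. A single member, Ifit1, was higher at an unadjusted p under 0.05, where 7.27% of all genes were, and 0 were lower, where 5.94% were. Ifit1 was also the 1 member whose groups did not overlap upward (4.52% of all genes), and 0 members did so downward (3.1%). The lean rests in part on single arrays: the median was 0.04 with 23 positive without replicate 2, 0.19 with 29 positive without replicate 1 and 0.15 with 29 positive without replicate 5. The count of higher members was 2 without replicates 4, 6, 9 or 10 in turn and 3 without replicates 1, 7, 8 or 12, against 5.03% to 8.47% of all genes in these fits.

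RAGE deletion without diabetes left the list centred near 0. Here 19 of 35 members were positive, with a median of 0.02, against 50.6% of all genes and a median of 0.00. Ifit1 and Xaf1 were higher at an unadjusted p under 0.05, as were 1.34% of all genes, and Rsad2 was lower, as were 1.28%. In 0 members did the groups not overlap, against 2.3% of genes upward and 2.57% downward. The count of higher members was 1 without replicate 6 or replicate 14 and 4 without replicate 13, against 1.30%, 2.01% and 1.19% of all genes, and the lower count was 0 without any of replicates 1, 3, 4, 5, 8, 9, 10, 13, 14 and 15.

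Diabetes in Apoe/RAGE null aorta gave the highest count with all arrays. Of the 35 members, 34 were positive, Oasl1 (-0.03) being the exception, and the median was 0.32, against 44.2% of all genes and a median of -0.02. At an unadjusted p under 0.05, 15 members were higher, against 3.74% of all genes, and 0 were lower, against 3.97%. The 15 were Iigp1, Irf9, Rtp4, Ifit1, Parp14, Rsad2, Mx1, Irf7, Ly6e, Ifih1, Irf1, Ifi27l2a, Usp18, Cmpk2 and Oas1a. Iigp1, Irf1, Rsad2 and Zbp1 did not overlap upward, 4 members against 2.39% of genes, and 0 did so downward, against 4.3%. Without replicates 9 and 10, 3 members were higher (Ifi27l2a, Irf1 and Rtp4, against 2.43% of all genes), 33 were positive and the median was 0.18. Only replicates 11 and 12 then stood for the diabetic group, and groups of fewer arrays overlap less often. The groups did not overlap upward in 6 members, against 8.11% of all genes. The count of higher members was 7 without replicate 10, 8 without replicate 13, 7 without replicate 15 and 22 without replicate 12, against 2.52%, 3.72%, 2.73% and 7.61% of all genes.

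RAGE deletion in diabetic aorta showed 34 of 35 members positive, against 49.4% of all genes, with Ifit2 (-0.05) the exception and a median of 0.25. Usp18, Ifit3, Irf7, Samhd1, Dhx58, Ifit1 and Trim25 were higher at an unadjusted p under 0.05, 7 members against 6.62% of all genes, and 0 were lower, against 11.3%. Ifit3 alone did not overlap upward, against 1.86% of genes, and 0 did so downward, against 5.86%. Without replicates 9 and 10 the count was 1 higher (Dhx58) and 1 lower (Ifit2), against 10.6% and 10.4% of all genes, with 29 positive and a median of 0.11. Ifit3 and Dhx58 then did not overlap upward, against 13.3% of genes, and Ifit2 downward, against 14.6%. The higher count was 2 without replicate 1, 14 without replicate 2, 3 without replicate 3, 2 without replicate 10 and 17 without replicate 12. The shares of all genes in these fits were 4.25%, 9.01%, 3.77%, 7.73% and 7.11%.

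The effects of diabetes in the 2 genotypes were compared directly through the interaction. It was positive in 30 of 35 members, with a median of 0.22, but 0 members had an unadjusted p under 0.05 in either direction, against 2.41% of all genes upward and 6.16% downward. Without replicates 9 and 10 it was positive in 25 members with a median of 0.09, and 0 members were higher and 1 lower (Ifit2, -0.41), against 5.31% and 5.65% of all genes. Leaving out replicate 12 gave 9 members upward and leaving out replicate 2 gave 4, against 3.61% and 4.18% of all genes. The median was 0.13 without replicate 1 and 0.15 without replicate 10. Rsad2 had the smallest p, with an interaction of 0.95 ± 0.48 (SE) and an adjusted p of 0.711 by limma, and 0.54 ± 0.32 (SE) without replicate 5. Mx1 followed at 0.24 ± 0.13 (SE), with an adjusted p of 0.731, and gave 0.16 without replicates 9 and 10.

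**Figure D2:**
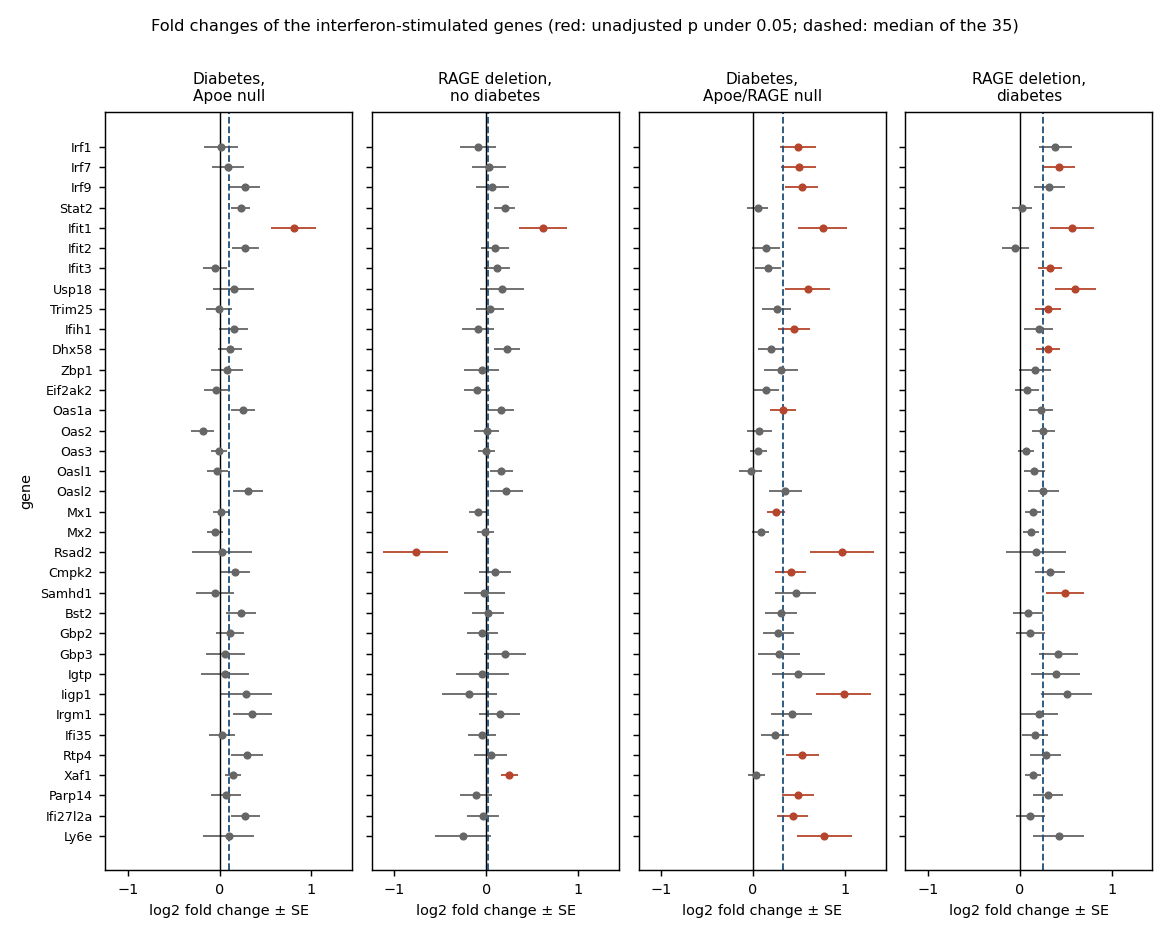
Points give the limma log2 fold change of each of the 35 genes in 4 comparisons and bars its standard error; red marks an unadjusted p under 0.05 and the dashed line the median of the 35. The median is 0.10, 0.02, 0.32 and 0.25 from left to right, and 1, 3, 15 and 7 genes are red.

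The signal transducers and interferon regulatory factors were Irf1, an activator of interferon target genes, Irf7, which switches on the type I interferon genes themselves, and Stat2 and Irf9, which carry the type I signal to the ISRE. Irf7 read 5.14, 4.97, 5.09 and 4.89 in non-diabetic and 4.94, 5.29, 5.06 and 5.16 in diabetic Apoe null arrays. It read 4.98, 5.00 and 5.17 in non-diabetic Apoe/RAGE null arrays and 5.88, 6.02, 5.17 and 5.11 in the diabetic ones (replicates 9 to 12). Only replicates 9 and 10 stood above the rest, and the other 13 arrays spanned 4.89 to 5.29. The fold change for diabetes in Apoe/RAGE null aorta was 0.50 ± 0.19 (SE), adjusted p 0.674 by limma, and it was 0.09 without replicates 9 and 10. For RAGE deletion in diabetic aorta it was 0.43 ± 0.17 (SE), adjusted p 0.261, and 0.03 without them.

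Irf9 gave 5.41, 5.37, 5.81 and 5.78 in non-diabetic Apoe null arrays and 5.88, 6.12, 5.80 and 5.64 in diabetic ones. The Apoe/RAGE null arrays gave 5.59, 5.90 and 5.48 without diabetes and 6.18, 6.59, 6.19 and 5.77 with it. Replicates 9, 10 and 11 exceeded every other array, but replicate 12 did not. The difference for diabetes in Apoe/RAGE null aorta was 0.53 ± 0.18 (SE), adjusted p 0.674 by limma, and 0.33 without replicates 9 and 10. Irf1 differed by 0.49 in the same comparison and by 0.02 for diabetes in Apoe null aorta.

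Stat2 stayed within a narrow band. Its signal was 3.61, 3.86, 4.12 and 4.12 in non-diabetic Apoe null, 4.21, 4.18, 4.20 and 4.03 in diabetic Apoe null, 4.26, 4.12 and 3.99 in non-diabetic Apoe/RAGE null and 4.28, 4.10, 4.20 and 4.12 in diabetic Apoe/RAGE null arrays. The 2 lowest values were both non-diabetic Apoe null (replicates 5 and 6). For diabetes in Apoe null aorta the difference was 0.23 ± 0.11 (SE), adjusted p 0.475 by limma, and its other probe set gave -0.09. Diabetes in Apoe/RAGE null aorta gave 0.05, and 0.03 without replicates 9 and 10.

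The IFIT proteins bind viral RNA, Usp18 strips the ubiquitin-like protein ISG15 from its targets and dampens the type I receptor, and Trim25 is a ubiquitin ligase that helps the RNA sensor RIG-I to signal. Ifit1 had a positive fold change in all 4 comparisons. It read 4.55, 4.07, 4.30 and 4.99 in non-diabetic and 5.01, 5.25, 5.20 and 5.67 in diabetic Apoe null arrays, without overlap. Apoe/RAGE null arrays read 5.00, 5.53 and 4.76 without diabetes and 6.23, 5.92, 6.07 and 5.19 with it, overlapping through replicates 12 and 14. Ifit1 was the only member with an unadjusted p under 0.05 in all 4 comparisons, and its adjusted p by limma was 0.342, 1, 0.674 and 0.291. The 4 comparisons share their groups, so these are not 4 independent results. The fold changes were 0.81 ± 0.24 (SE) for diabetes in Apoe null aorta, 0.62 ± 0.26 for RAGE deletion without diabetes, 0.76 ± 0.26 for diabetes in Apoe/RAGE null aorta and 0.57 ± 0.24 for RAGE deletion in diabetic aorta. The last 2 became 0.53 and 0.34, neither at an unadjusted p under 0.05, without replicates 9 and 10. Its interaction was -0.05 ± 0.36 (SE), and -0.27 without them.

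Usp18 read 4.79, 4.49, 5.02 and 4.82 in non-diabetic and 4.61, 5.12, 4.91 and 5.10 in diabetic Apoe null arrays. In Apoe/RAGE null arrays it read 4.71, 5.38 and 4.76 without diabetes and 5.29, 6.20, 5.66 and 5.01 with diabetes. Replicates 10 and 11 were the highest of the series, and the groups overlapped in every comparison. RAGE deletion in diabetic aorta gave 0.61 ± 0.22 (SE), the smallest adjusted p of any member in that comparison (0.221, limma). The value was 0.40 without replicates 9 and 10. Diabetes in Apoe/RAGE null aorta gave 0.59 ± 0.24 (SE), adjusted p 0.674, and 0.39 without them.

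Ifit3 differed from Ifit1 although both genes lie on chromosome 19 and carry the same ISRE core. Its values were 6.94, 7.29, 7.26 and 7.28 in non-diabetic Apoe null, 7.13, 7.16, 7.14 and 7.13 in diabetic Apoe null, 7.41, 7.57 and 6.97 in non-diabetic Apoe/RAGE null and 7.73, 7.54, 7.24 and 7.39 in diabetic Apoe/RAGE null arrays. The diabetic Apoe null arrays were tightly grouped, and all 4 diabetic Apoe/RAGE null arrays lay above them. The difference between these groups was 0.33 ± 0.13 (SE), adjusted p 0.248 by limma, and 0.17 without replicates 9 and 10. Diabetes in Apoe null aorta gave -0.05. Ifit2 gave 0.28 for diabetes in Apoe null aorta and -0.05 for RAGE deletion in diabetic aorta, which became -0.32 without replicates 9 and 10. Trim25 gave 0.31 in the latter comparison.

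Isg15, measured together with Gm9706, showed a modest spread. It read 5.49, 4.66, 5.03 and 4.95 in non-diabetic Apoe null and 5.24, 5.26, 5.49 and 5.32 in diabetic Apoe null arrays, and 4.67, 5.17 and 4.65 in non-diabetic and 5.54, 5.50, 5.13 and 4.87 in diabetic Apoe/RAGE null arrays. All groups that were compared overlapped. Diabetes in Apoe/RAGE null aorta gave 0.43 ± 0.20 (SE), adjusted p 0.686 by limma, and RAGE deletion in diabetic aorta -0.06 ± 0.18. These became 0.17 and -0.33 without replicates 9 and 10.

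**Figure D3:**
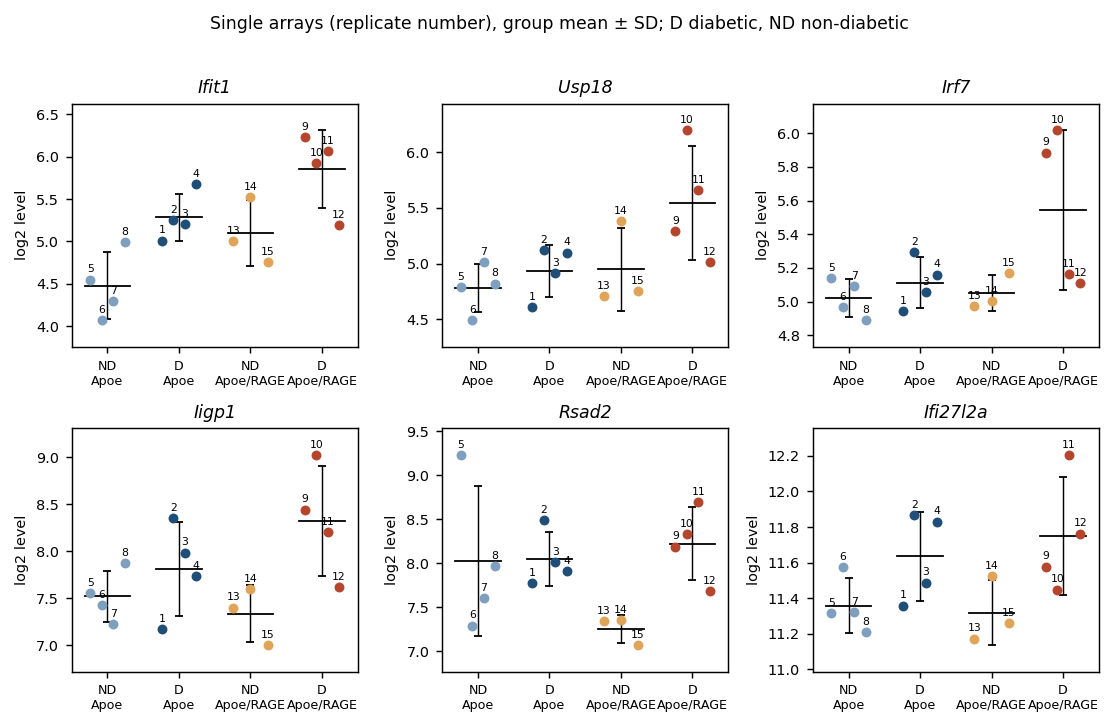
Each panel shows 1 gene, with the log2 level on the y axis (the axes differ and do not start at 0), points for single arrays labelled by replicate number, and bars for the group mean ± SD (n = 4, or 3 for non-diabetic Apoe/RAGE null). Irf7 is high in replicates 9 and 10 alone, Iigp1 and Rsad2 separate the diabetic from the non-diabetic Apoe/RAGE null arrays, and replicate 5 reads 9.23 for Rsad2.

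The nucleic acid sensors were Ifih1 (MDA5), its regulator Dhx58 (LGP2), the Z-nucleic acid sensor Zbp1, the kinase Eif2ak2 (PKR), and the oligoadenylate synthetase family, whose active members make the messenger that activates RNase L. The 9 genes had a median of 0.19 for diabetes in Apoe/RAGE null aorta and of 0.20 for RAGE deletion in diabetic aorta, and of 0.14 and 0.10 without replicates 9 and 10. Ifih1 gave 0.44 and Oas1a 0.32 in the first of these, and Ifih1 gave 0.27 without the same arrays. Zbp1 gave 0.30 with groups that did not overlap, and 0.14 without replicates 9 and 10, of which replicate 10 read 5.04 and the rest of its group 4.39 to 4.395. Dhx58 gave 0.31 in the second. Oas2 (0.07), Oas3 (0.06) and Oasl1 (-0.03) lay near 0 for diabetes in Apoe/RAGE null aorta (Oasl1 at -0.09 without replicates 9 and 10), and Oasl2 gave 0.35. Oas2 and Oas3 were highest in replicate 12, the array with the lowest mean over the 35 members in its group.

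The antiviral effectors hinder viruses in different ways. Mx1 and Mx2 are dynamin-like GTPases, Rsad2 (viperin) makes a chain-terminating nucleotide and Cmpk2 is a mitochondrial nucleotide kinase. Samhd1 degrades nucleotides and Bst2 (tetherin) holds budding virus at the membrane. Rsad2 read 9.23, 7.29, 7.61 and 7.97 in non-diabetic Apoe null and 7.78, 8.49, 8.01 and 7.91 in diabetic Apoe null arrays. Apoe/RAGE null arrays read 7.34, 7.36 and 7.07 without and 8.19, 8.34, 8.69 and 7.68 with diabetes, and these groups did not overlap. Its fold change there was 0.97 ± 0.35 (SE), adjusted p 0.674 by limma, and it was 0.93 without replicates 9 and 10. Replicate 5 was the highest of all arrays. RAGE deletion without diabetes gave -0.77 ± 0.35 (SE), adjusted p 1, and -0.37 without replicate 5. All 3 Rsad2 probe sets had the same direction in both comparisons.

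Mx1 gave a low signal in every group. It was 3.65, 3.56, 3.63 and 3.63 in non-diabetic Apoe null, 3.64, 3.63, 3.62 and 3.62 in diabetic Apoe null, 3.46, 3.63 and 3.47 in non-diabetic Apoe/RAGE null and 3.70, 4.00, 3.84 and 3.54 in diabetic Apoe/RAGE null arrays. Replicates 9, 10 and 11 were the highest of the series. The difference for diabetes in Apoe/RAGE null aorta was 0.25 ± 0.09 (SE), adjusted p 0.674 by limma. It was 0.17 without replicates 9 and 10. Inbred strains such as C57BL/6 carry a defective Mx1 gene. Samhd1 gave 0.49 for RAGE deletion in diabetic aorta, with all 5 of its probe sets positive (0.28 to 0.67), but the value was 0.11 without replicates 9 and 10. Cmpk2 gave 0.41 for diabetes in Apoe/RAGE null aorta, and its other probe set, with a mean signal of 3.21, gave -0.02.

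The GBP and IRG proteins are GTPases that act against intracellular pathogens and are classical targets of interferon gamma. Iigp1 gave 7.55, 7.43, 7.23 and 7.87 in non-diabetic and 7.17, 8.35, 7.99 and 7.73 in diabetic Apoe null arrays. It gave 7.40, 7.60 and 7.0 in non-diabetic and 8.44, 9.02, 8.21 and 7.62 in diabetic Apoe/RAGE null arrays, where replicate 12 lay only just above replicate 14. Diabetes in Apoe/RAGE null aorta gave 0.99 ± 0.30 (SE), the largest fold change of a member in any comparison, with an adjusted p of 0.674 by limma. It was 0.58 without replicates 9 and 10, and its second probe set gave 0.92 with all arrays. The other 4 GTPases gave 0.49 (Igtp), 0.42 (Irgm1), 0.28 (Gbp3) and 0.27 (Gbp2), none with an unadjusted p under 0.05. They gave 0.22, 0.19, 0.14 and 0.15 in that order without replicates 9 and 10. In replicate 10 the median of the 5 GTPases lay 0.98 above the non-diabetic Apoe/RAGE null mean, in replicate 9 only 0.12.

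The remaining members were Ifi35, Rtp4, Xaf1, Parp14, Ifi27l2a and Ly6e, a mixed set of interferon-induced genes that includes the ADP-ribosyltransferase Parp14, the apoptosis factor Xaf1 and the membrane protein Ly6e. Ifi27l2a had the strongest signal of the list, at 11.32, 11.58, 11.32 and 11.21 in non-diabetic Apoe null and 11.36, 11.87, 11.49 and 11.83 in diabetic Apoe null arrays. Apoe/RAGE null arrays gave 11.17, 11.52 and 11.26 without and 11.58, 11.45, 12.21 and 11.76 with diabetes. Replicate 11 was the highest, and the groups overlapped through replicates 10 and 14. Diabetes in Apoe/RAGE null aorta gave 0.43 ± 0.17 (SE), adjusted p 0.674 by limma, and 0.66 without replicates 9 and 10, so this gene was further apart without them.

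Xaf1 read 6.23, 6.27, 6.27 and 6.51 in non-diabetic Apoe null, 6.37, 6.57, 6.49 and 6.44 in diabetic Apoe null, 6.51, 6.55 and 6.66 in non-diabetic Apoe/RAGE null and 6.49, 6.66, 6.78 and 6.50 in diabetic Apoe/RAGE null arrays. The non-diabetic Apoe null group was lowest, apart from replicate 8. RAGE deletion without diabetes gave 0.25 ± 0.09 (SE), adjusted p 1 by limma, whereas diabetes in Apoe/RAGE null aorta gave 0.04, and 0.07 without replicates 9 and 10. Ly6e (0.77), Rtp4 (0.54) and Parp14 (0.49) were among the 15 higher in the latter comparison, and gave 0.46, 0.51 and 0.18 when replicates 9 and 10 were left out. With all arrays the other probe set gave 0.86 for Ly6e, -0.03 for Rtp4 (mean signal 3.17) and 0.49 for Parp14. That of Xaf1, with a mean signal of 2.85, gave -0.04 for RAGE deletion without diabetes.

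The 4 diabetic Apoe/RAGE null arrays differed in how many members were higher and in which ones. Against the mean of the non-diabetic Apoe/RAGE null arrays, 31 of 35 members were higher in replicate 9 (median difference 0.29), 33 in replicate 10 (0.74), 29 in replicate 11 (0.39) and 20 in replicate 12 (0.02). The share of all genes above that mean was 42.2% to 47.8% in these arrays. Replicate 9 was led by Ifit1 (1.13), Iigp1 (1.11) and Rsad2 (0.93), replicate 10 by Ly6e (1.73), Iigp1 (1.69) and Igtp (1.40), and replicate 11 by Rsad2 (1.44), Ifit1 (0.97) and Ifi27l2a (0.89). Replicate 10 was the highest of all 15 arrays for 20 of the 35 members, where it was for 12.3% of all genes. Replicate 9 was highest for Ifit1, Ifit2, Ifit3, Mx2 and Stat2, and replicate 11 for Cmpk2, Ifi27l2a, Oasl2, Rtp4 and Xaf1.

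**Figure D4:**
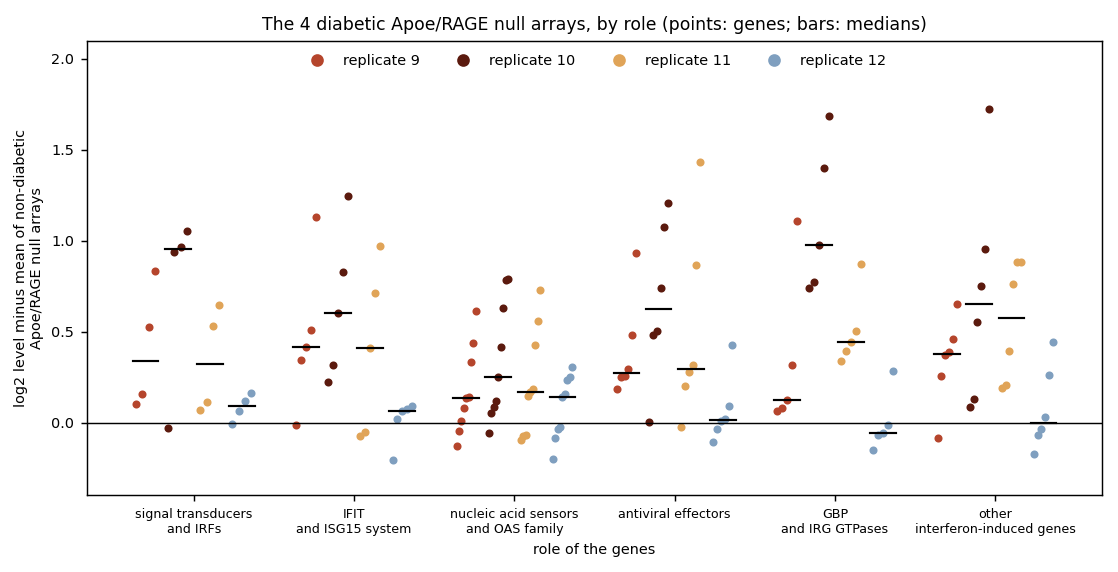
Points give, for each gene, the log2 level in 1 diabetic Apoe/RAGE null array minus the mean of the 3 non-diabetic Apoe/RAGE null arrays, grouped by role; colours mark replicates 9 to 12 and bars the median of the genes of a role. The GBP and IRG GTPases separate replicate 10 (median 0.98) from replicate 9 (0.12), and the bars of replicate 12 stay between -0.06 and 0.14.

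Markers of other cell types moved with these arrays, and in whole aorta a change in the number of cells of a type cannot be told apart from a change in RNA per cell. Expressed as mean deviation from the mean over all arrays, the 10 macrophage markers ranged from -0.25 to 1.06 in diabetic Apoe/RAGE null, -0.54 to -0.26 in non-diabetic Apoe/RAGE null, -0.07 to 0.37 in diabetic Apoe null and -0.35 to -0.14 in non-diabetic Apoe null arrays. Replicate 10 read 1.06 for macrophage, 2.91 for B and plasma cell (6 of 8 markers measured), 2.04 for T and NK cell (7 of 10) and 1.36 for plasmacytoid dendritic cell markers (8 of 8), the highest of the 15 arrays in each. Replicate 9, with 31 of 35 members higher, read 0.03, -0.59, -0.24 and -0.02 for the same lists, inside the range of the other groups. The plasmacytoid dendritic cell value of replicate 10 rested largely on Irf8 (7.78 against a mean of 4.64), Spib (6.35 against 3.20) and Ly6d (6.74 against 4.24). Clec10a, Klk1 and Cox6a2 of that list were higher in other arrays. For neutrophil markers (7 of 8 measured) replicates 9 to 12 read 0.23, 0.99, 1.00 and -0.07, where the highest array of the other groups read 0.16. The value of replicate 11 rested largely on Ltf (8.56 against a mean of 4.39 over all arrays). S100a8 (5.86 against 4.52), S100a9 (5.79 against 4.68) and Ngp (4.30 against 3.95) were higher by less. Camp (3.70 against 3.73), Mmp8 (3.30 against 3.30) and Cxcr2 (2.77 against 2.75) lay near their means. Replicate 11 also read 0.53 for macrophage and 1.77 for lung markers (6 of 6 measured). The lung value rested largely on Scgb1a1 (10.9 against a mean of 6.48) and Scgb3a2 (9.66 against 5.61). Sftpd (4.95 against 3.48) and Sftpa1 (3.62 against 2.86) were higher by less, and Sftpb (4.53 against 4.46) and Sftpc (3.36 against 3.49) lay near their means. Skeletal muscle markers (8 of 8) were at 1.23 to 2.87 in the diabetic and -2.55 to -1.18 in the non-diabetic Apoe/RAGE null arrays. They were highest in replicate 12, which had the lowest mean of the 35 members in its group. Apoe null arrays spanned -1.43 to 1.90 with and -2.21 to 1.59 without diabetes. Smooth muscle markers (7 of 7) ranged from -0.49 to 0.36 over all arrays. All 7 were lower for diabetes in Apoe/RAGE null aorta (median -0.23) and for RAGE deletion in diabetic aorta (-0.26). As a check of the labelled tissue, their mean log2 level was 10.81 to 11.66 in single arrays, and that of the endothelium markers (8 of 8) was 6.71 to 7.54. The part of these markers in the results was not tested.

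**Figure D5:**
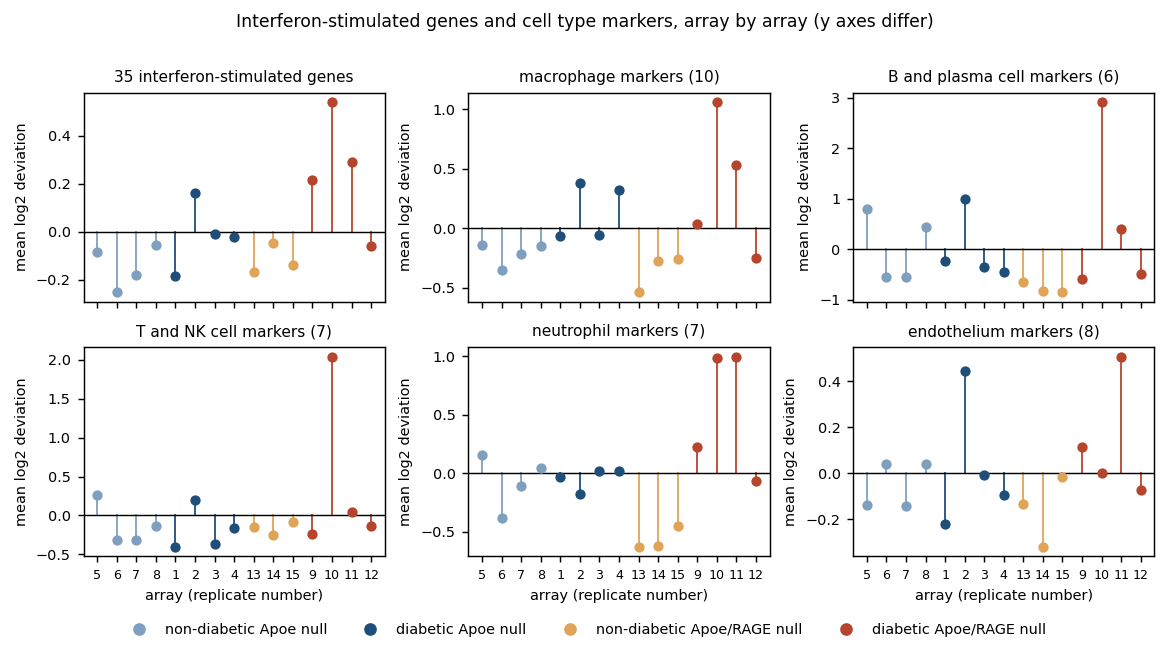
Each panel gives, for every array (replicate number on the x axis, colour for its group), the mean log2 deviation of the genes of a list from their means over the 15 arrays; the y axes differ. Replicate 10 is highest for the interferon-stimulated genes (0.54) and for the macrophage, B cell and T cell markers, whereas replicate 9 is raised for the interferon-stimulated genes (0.22) with the B cell markers at -0.59.

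Other genes of the pathway were counted in the same way. Of 107 listed ligands, receptors, signalling proteins, inducers and further targets, 86 were measured and 0 passed the adjusted test in any comparison. At an unadjusted p under 0.05, 16 were higher and 1 lower for diabetes in Apoe/RAGE null aorta, against 3.74% and 3.97% of all genes. Without replicates 9 and 10 these were 4 and 0, against 2.43% and 1.81%. The remaining counts were near or below the shares of all genes. For RAGE deletion in diabetic aorta 6 were higher and 3 lower, against 6.62% and 11.3%, and 5 and 3 without replicates 9 and 10, against 10.6% and 10.4%. Diabetes in Apoe null aorta gave 5 and 1, against 7.27% and 5.94%, and RAGE deletion without diabetes 0 and 1, against 1.34% and 1.28%. The 46 further targets had a median of 0.27 for diabetes in Apoe/RAGE null aorta, 42 of them positive, and 11 were higher at that threshold. Their median was 0.15 without replicates 9 and 10, with 39 positive and 2 higher.

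The ligands were near the bottom of the signal range. The 10 measured interferons had means between 2.42 (Ifng) and 4.16 (Ifna9), below the median of all probe sets. Ifnb1, which encodes interferon beta, spanned 2.65 to 3.49 over all arrays. It was 0.35 ± 0.13 (SE) higher in diabetic than in non-diabetic Apoe/RAGE null aorta, with an adjusted p of 0.674 by limma, and replicate 12, with 20 of 35 members higher, was the highest of all at 3.49.

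Among the receptors, Ifngr2 went against the list. It read 5.40, 5.96, 6.14 and 5.93 in non-diabetic and 6.12, 5.78, 6.28 and 5.82 in diabetic Apoe null arrays, 5.93, 6.12 and 5.74 in non-diabetic Apoe/RAGE null arrays, and 5.08, 5.19, 5.32 and 5.77 in diabetic Apoe/RAGE null arrays. Replicates 9, 10 and 11 were the lowest of the series. RAGE deletion in diabetic aorta gave -0.66 ± 0.18 (SE), adjusted p 0.112 by limma, and diabetes in Apoe/RAGE null aorta -0.59 ± 0.19, adjusted p 0.674. These were -0.46 and -0.39 without replicates 9 and 10. For diabetes in Apoe/RAGE null aorta Ifngr1 gave 0.00, Ifnar1 0.04 and Ifnar2 -0.02, and -0.11, 0.05 and 0.21 without those arrays. For RAGE deletion in diabetic aorta Ifngr1 gave 0.29, Ifnar1 0.09 and Ifnar2 0.24, and 0.18, 0.10 and 0.47 without them.

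Further targets with the smallest p were Ifitm2, a membrane protein that blocks virus entry, Tdrd7, Isg20, an RNA exonuclease, and Ifi204, a DNA sensor of the p200 family. Ifitm2 gave 0.39 ± 0.09 (SE) for diabetes in Apoe null aorta, adjusted p 0.26 by limma, with all 4 diabetic arrays (10.49 to 10.67) above the 4 non-diabetic ones (10.01 to 10.31). For RAGE deletion in diabetic aorta it gave -0.31 ± 0.09 (SE), adjusted p 0.123, opposite to 34 of the 35 members. Ifitm1, Ifitm3 and Ifitm6 did not share that direction, at 1.32, 0.01 and 0.07. Without replicates 9 and 10 they gave 1.05, -0.17 and -0.25. For diabetes in Apoe null aorta these genes gave 0.15, 0.33 and 0.33. Tdrd7 gave 0.28 for diabetes in Apoe null aorta and -0.25 for RAGE deletion in diabetic aorta. Isg20 gave -0.67 for RAGE deletion without diabetes, Irf5, an inducer of inflammatory cytokines, -0.25, and Ifi204 0.48 for diabetes in Apoe/RAGE null aorta.

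Members with and without the ISRE core were set side by side, with no test. For diabetes in Apoe/RAGE null aorta the median fold change was 0.30 in the 13 members with the core and 0.35 in the 11 without it. For RAGE deletion in diabetic aorta it was 0.20 and 0.31. The medians were 0.15 and 0.09, and 0.09 and 0.12, without replicates 9 and 10. Members with the GAS core (8) and without it (16) had medians of 0.31 and 0.32 for diabetes in Apoe/RAGE null aorta, and 0.09 and 0.17 without those arrays.

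Of the 35 members, 15 have several probe sets. For diabetes in Apoe/RAGE null aorta, 32 of their 38 probe sets had the direction of the one used, and all probe sets agreed in sign for 10 of the 15 genes. The counts were 35 of 38 and 12 of 15 for RAGE deletion in diabetic aorta, and 29 of 38 and 8 of 15 for diabetes in Apoe null aorta. The 38 include the 15 probe sets used, which match themselves by definition, so the counts out of 38 overstate the agreement. Of the 35, 13 members stand on probe sets whose name marks probes that may be shared with other transcripts, among them Irf7, Irf9, Mx1 and Iigp1.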

How the data were processed

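Each of 15 Affymetrix arrays measured the aortic RNA of a single mouse, as the labels' protocols state. Per the submitters' processing notes the authors computed the deposited log2 values by RMA; its version, and whether all arrays were normalized in 1 run, are not given in the sources used here. No further normalization was applied. Arrays have no read depth, so that precision depends on how many there are; p-values reflect variation between these mice.

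The table held 45101 probe sets, of which 64 controls were left out. Of the 45037 tested, 34945 were annotated to 1 gene, 932 to several and 9160 to none named here; 34741 of the first matched a RefSeq gene by Entrez ID. The probe set with the highest mean was used for each of 18193 genes. Groups were compared by limma 3.58.1 (lmFit and eBayes, R 4.3.3) in a single model of all 15 arrays with a mean for each group, and p-values were adjusted over all probe sets by Benjamini-Hochberg, with a threshold of 0.05. The fit was tested on simulated data. Tables and figures were made in Python 3.11.15 with pandas 2.3.3 and matplotlib 3.10.9. Replicate numbers run over the series and pair no mice. Means of lists average each gene's deviation from its mean over the 15 arrays.

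The members, the lists and the alternatives were chosen with earlier results of these data known, among them the choice to leave out replicates 9 and 10. Named with values in every array are the 2 members with the smallest p in each comparison and the interaction, those with the highest and the lowest mean, and Isg15, Irf7 and Stat2. Of the pathway list, the 2 genes with the smallest p in each comparison and the interferon receptors were named, with Ifng and Ifna9 as the ends of a range. Ifitm1, Ifitm3 and Ifitm6 are given beside Ifitm2. Alternatives were only the compared groups in the fit, dim probe sets left out, quantile normalization, a trended robust variance, array weights, the most variable probe set per gene, a fit without probe sets of shared probes, B above 0 (the submitters' threshold), adjustment over 1 probe set per gene, and arrays left out.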

Additional observations from a re-analysis of the deposited data

Results flagged for a closer look

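A value was singled out where it lay far from the rest of its group of 4 arrays, by the gap to its nearest neighbour relative to the range of the group. Of 108 checks, 6 did so, and chance singles out about 1 in 20. Irf1 read 7.868 in diabetic Apoe null replicate 2, with the others at 7.288 to 7.33. Zbp1 read 5.035 in diabetic Apoe/RAGE null replicate 10, with the others at 4.39 to 4.395. Stat2 read 4.029 in diabetic Apoe null replicate 4, below the others at 4.185 to 4.211. Oas1a read 5.905 in diabetic Apoe null replicate 3, above 5.695 to 5.717. Among the non-diabetic Apoe null arrays, Ifit3 read 6.942 in replicate 5, below 7.259 to 7.292, and Xaf1 read 6.507 in replicate 8, above 6.234 to 6.27.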

How the results depend on the processing

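No member passed an adjusted p under 0.05, or B above 0, under any alternative run. The medians of the list moved by less than 0.158, the pooled SD between mice of the members' mean deviation. That SD is not the uncertainty of a median fold change. Without replicates 9 and 10 the median fell from 0.32 to 0.18 for diabetes in Apoe/RAGE null aorta. It fell from 0.25 to 0.11 for RAGE deletion in diabetic aorta and from 0.22 to 0.09 for the interaction. Counts of members at an unadjusted p under 0.05 moved as well. With only the compared groups in the fit, 3 members were higher for diabetes in Apoe null aorta, 8 for diabetes in Apoe/RAGE null aorta and 4 for RAGE deletion in diabetic aorta, and 0 were lower for RAGE deletion without diabetes. The last count was also 0 with quantile normalization, a trended robust variance, array weights and without replicates 9 and 10. Array weights gave 3 higher for diabetes in Apoe null aorta and 1 for the interaction, as did the most variable probe set per gene for the interaction. Without replicates 9 and 10 the higher counts were 3 for diabetes in Apoe null aorta, 3 for diabetes in Apoe/RAGE null aorta and 1 for RAGE deletion in diabetic aorta, where 1 was lower, as was 1 in the interaction. With each array left out in turn, the higher count was 1 to 3 for diabetes in Apoe null aorta, 1 to 4 for RAGE deletion without diabetes (lower 0 to 1), 7 to 22 for diabetes in Apoe/RAGE null aorta, 2 to 17 for RAGE deletion in diabetic aorta and 0 to 9 for the interaction. The cause was not tested. The fold changes of the 26 gene and comparison pairs with an unadjusted p under 0.05 kept their sign in all 589 refitted values. These pairs were picked by their p in the same data. A trended robust variance, another adjustment or leaving out an array of a group not compared cannot change a fold change. The kept signs were thus largely fixed in advance and add little support. No fit paired the mice, as the replicate numbers do not. Signals near the bottom of the range, such as those of Mx1 and the interferons, limit what small differences can show.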
